A study of Homo sapiens and Homo sapiens
Mus musculus and Mus musculus with 9 samples.

Results

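Mitochondrial DNA maintenance and expression machinery is the set of nuclear genes whose proteins copy, transcribe and translate the mitochondrial genome. It was represented by 52 genes, chosen by symbol, among the 41713 genes of the deposited table, and all 52 were listed once. By role, 6 genes serve replication, 9 transcription, 15 RNA processing, 7 translation as factors of the mitochondrial ribosome, and 15 the charging of mitochondrial tRNAs. The study sequenced poly(A) RNA of the human prostate cancer line C4-2B cultured alone (3 libraries), of a mixed co-culture of C4-2B with the mouse osteoblast line MC3T3-E1 in a ratio of 1:30 (3 libraries), and of MC3T3-E1 cultured alone (3 libraries). All cells were labelled wild type and grown in alpha-MEM with fetal bovine serum, and C4-2B is an established line derived from LNCaP that grows in bone. The table analysed here covers the 6 libraries that hold C4-2B cells and gives human reads only, separated from mouse reads by 3 pipelines, Xenome, XenofilteR and Kallisto.

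The question of the study was how contact with osteoblasts changes gene expression in the cancer cells. The values used here are the authors' pooled means, in which the counts of a gene were divided by the size factor of each library and averaged over both groups. A pooled mean carries no group. The columns of the authors' own comparison of the groups were not used, and no difference between the co-culture and C4-2B alone is given for any gene. The levels below therefore describe C4-2B cells over both cultures, and no replicate error can be attached to a pooled mean. In bulk RNA of mixed cells, fewer cells and less RNA per cell cannot be told apart.

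Human mitochondrial DNA is a small circle that encodes a few subunits of the respiratory chain together with the rRNAs and tRNAs needed to make them. Everything else is imported: a dedicated polymerase and helicase copy the circle, a single-subunit RNA polymerase with its own factors transcribes both strands into long precursors, nucleases cut the precursors at the tRNAs, and a separate ribosome with its own tRNA synthetases reads the mRNAs.

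Levels were compared between genes as the mean normalised count per kb of exon, since a longer transcript gives more reads. Over the 52 genes the median Xenome level was 489 per kb, and the range ran from 10.9 to 4474 per kb. The median over 17784 protein-coding genes with a mean above 0 was 96.2 per kb, with an upper quartile of 424 per kb. Of the 52 genes, 47 lay above that median and 30 above that quartile. The members under the median were TFB1M, TSFM, SARS2, RARS2 and VARS2. With Kallisto TSFM, SARS2 and VARS2 had 681, 359 and 519 per kb, above that Xenome median, and TFB1M and RARS2 had 78.4 and 28.7 per kb.

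**Figure D1:**
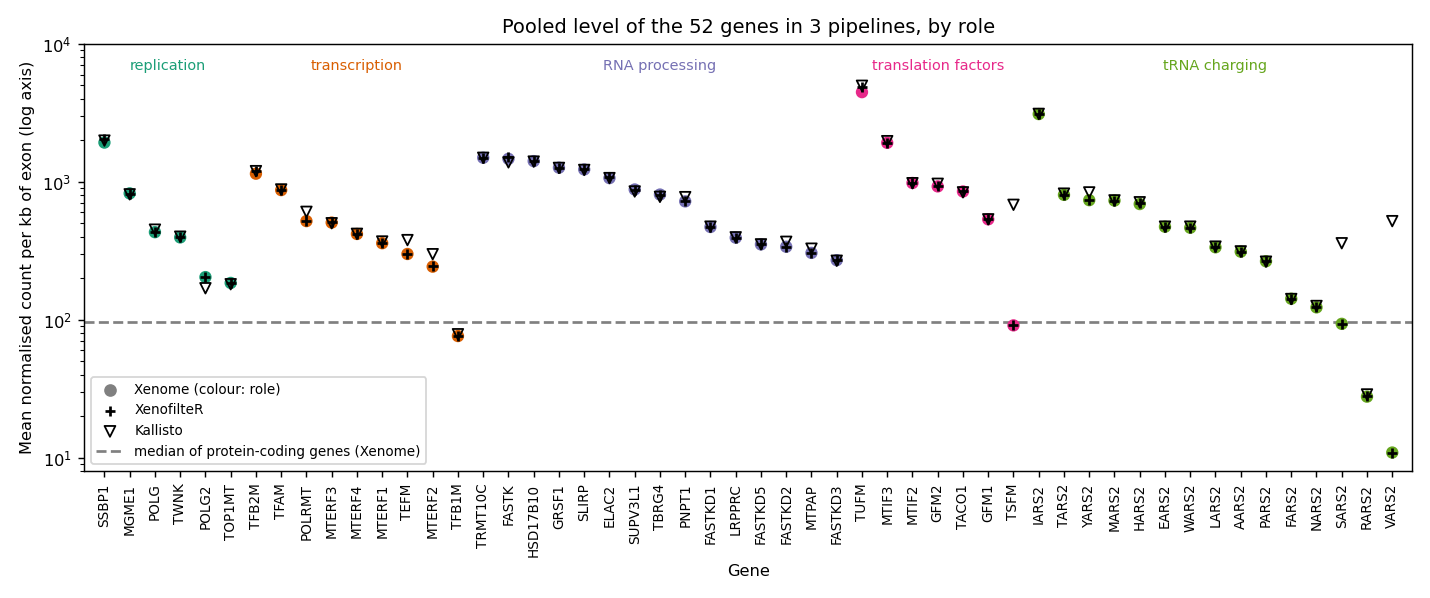
Pooled level of each gene as mean normalised count per kb of exon (log axis) in 3 pipelines, ordered by level within each role. TUFM was highest with 4474 per kb, 47 of 52 genes lay above the dashed median of protein-coding genes with Xenome, and the Kallisto marker stands far above the other markers for TSFM, SARS2 and VARS2.

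Replication genes spanned 185 to 1927 normalised counts per kb. SSBP1, the single-stranded DNA-binding protein that coats the displaced strand, was the highest with 1927 per kb. Divided by its longest transcript SSBP1 had 3659 per kb. MGME1, an exonuclease that trims the ends of newly made DNA, followed with 825 per kb. POLG, the catalytic subunit of the polymerase, had 431 per kb (672 by its longest transcript) and the helicase TWNK had 395 per kb. POLG2, the accessory subunit that makes the polymerase processive, had 204 per kb, below its catalytic partner. TOP1MT, the mitochondrial type I topoisomerase, had 185 per kb, the lowest of the role with Xenome and XenofilteR over all exon bases. With Kallisto POLG2 was lower (169 against 181 per kb), and divided by its longest transcript TOP1MT had 585 per kb, above POLG2 (260) and TWNK (439). With Xenome all 6 lay above the median of protein-coding genes.

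Transcription genes spanned 76.1 to 1146 normalised counts per kb. TFB2M, which opens the promoter together with the polymerase, was the highest with 1146 per kb. TFAM, which bends promoter DNA and packages the genome, had 871 per kb. POLRMT, the RNA polymerase itself, had 519 per kb, and its elongation factor TEFM had 300 per kb. TFB1M, the paralogue of TFB2M that methylates the small ribosomal RNA, was the lowest with 76.1 per kb, and it was the only gene of the role under the median of protein-coding genes. Of the MTERF family, which binds mitochondrial DNA or ribosomal RNA, MTERF3 had 506, MTERF4 had 419, MTERF1 had 359 and MTERF2 had 243 per kb. Divided by its longest transcript MTERF4 had 918 per kb, above MTERF3 with 596 and close to TFAM with 916.

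TFAM, POLRMT, TFB2M and TFB1M are shown with their upstream sequence because they were the transcription genes in which the core of the NRF-1 motif was found. NRF-1 and GABP (NRF-2) are transcription factors known for binding upstream of nuclear genes for mitochondrial proteins. The 250 bases before the start were read from RefSeq (GRCh38.p14), 5′ to 3′ on the strand of the gene, and capitals mark a match to GCGCANGCG (NRF-1, N being any base) or ACTTCCGG (GABP) on either strand.
TFAM (chr10:58385160-58385409, plus strand): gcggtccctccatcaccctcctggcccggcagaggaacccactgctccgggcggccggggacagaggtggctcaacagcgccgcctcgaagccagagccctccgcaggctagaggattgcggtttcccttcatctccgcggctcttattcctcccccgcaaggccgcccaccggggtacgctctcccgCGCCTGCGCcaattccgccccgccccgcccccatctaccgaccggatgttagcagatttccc
POLRMT (chr19:633538-633787, minus strand): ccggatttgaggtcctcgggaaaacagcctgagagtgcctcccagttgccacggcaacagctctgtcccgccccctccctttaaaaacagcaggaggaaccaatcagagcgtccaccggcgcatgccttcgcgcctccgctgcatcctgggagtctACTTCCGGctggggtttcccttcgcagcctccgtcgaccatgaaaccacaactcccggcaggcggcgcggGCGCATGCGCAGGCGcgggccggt
TFB2M (chr1:246566262-246566511, minus strand): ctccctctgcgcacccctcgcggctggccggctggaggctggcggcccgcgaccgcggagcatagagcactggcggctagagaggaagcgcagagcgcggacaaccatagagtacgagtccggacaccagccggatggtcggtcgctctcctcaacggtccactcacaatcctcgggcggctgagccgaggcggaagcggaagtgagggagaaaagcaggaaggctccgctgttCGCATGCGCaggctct
TFB1M (chr6:155314485-155314734, minus strand): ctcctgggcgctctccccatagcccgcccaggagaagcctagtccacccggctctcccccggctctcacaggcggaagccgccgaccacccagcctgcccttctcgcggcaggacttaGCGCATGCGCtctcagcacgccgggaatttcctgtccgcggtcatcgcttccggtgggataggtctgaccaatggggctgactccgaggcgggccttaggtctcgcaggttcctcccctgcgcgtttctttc
The POLRMT stretch held 3 NRF-1 matches, which overlap each other, and 1 GABP match. TFAM and TFB2M held 1 NRF-1 match each, and TFB1M held 2 that overlap, 1 on each strand.

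Upstream sequence was matched for 46 of the 52 genes. The NRF-1 core was found upstream of 8 of them, or 17.4%, beside 6.56% of all 35116 promoters of the same length. The GABP motif was found upstream of 11, or 23.9%, beside 3.42% of all promoters. The 35116 promoters were used as listed, without a limit to protein-coding genes or to 1 promoter per gene, and were not matched for base composition. The shares of the 46 genes, with 1 promoter each, therefore stand beside those of an unlike set. POLRMT alone held both motifs, and 18 genes held at least 1 of them. The NRF-1 matches lay upstream of TFAM, TFB1M, TFB2M, POLRMT, POLG2, MTPAP, IARS2 and MARS2. The GABP matches included those of TUFM, GFM1, GFM2, ELAC2, TRMT10C, MTERF1, MTERF4, EARS2, HARS2 and PARS2, the last 2 with 2 matches each. A match is a string of letters and was not tested for binding.

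RNA processing genes had a median of 809 and a range of 270 to 1496 normalised counts per kb. By median the translation factors were higher with 926 per kb, and the transcription, replication and tRNA charging genes were lower with 419, 413 and 335 per kb. The order of the last 3 turned with Kallisto, where their medians were 420, 425 and 473 per kb. By the longest transcript, RNA processing had the highest median. Its middle gene, TBRG4, had 1377 per kb, and the middle translation factor, GFM2, had 1207 per kb. Replication then lay above transcription by median, and tRNA charging stayed the lowest. All 15 RNA processing genes lay above the median of protein-coding genes. With Xenome over all exon bases the highest were TRMT10C with 1496 per kb and HSD17B10 with 1414 per kb, which are subunits of the RNase that cuts the 5′ ends of mitochondrial tRNAs, and FASTK with 1468 per kb, a relative of the FASTKD proteins that handle mitochondrial mRNAs. ELAC2, which cuts the 3′ ends of the tRNAs, had 1064 per kb. GRSF1, a protein of mitochondrial RNA granules, had 1267 per kb. With XenofilteR FASTK (1506) was above TRMT10C (1494). Divided by the longest transcript SLIRP was the highest of the role with 3740 per kb, followed by ELAC2 with 1979, FASTK with 1840 and TRMT10C with 1553.

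LRPPRC and SLIRP form a complex that stabilises mitochondrial mRNAs. SLIRP had 1229 per kb, and LRPPRC had 393 per kb over 34.7 kb of annotated exon. Divided by their longest transcripts instead, SLIRP had 3740 and LRPPRC 1332 per kb, in the same order. The LRPPRC mean of 13650 normalised counts was the highest of the 52 genes before the division by length. The helicase SUPV3L1 and the nuclease PNPT1, which together degrade mitochondrial RNA, had 880 and 721 per kb (1521 and 839 by the longest transcript), and the poly(A) polymerase MTPAP had 305 per kb. TBRG4 had 809 per kb (1377 by its longest transcript), and FASTKD1, FASTKD5, FASTKD2 and FASTKD3 had 470, 352, 338 and 270 per kb.

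Among the translation factors, TUFM, the elongation factor that brings charged tRNAs to the ribosome, had the highest level of all 52 genes with 4474 normalised counts per kb, above 98.6% of protein-coding genes. The initiation factors MTIF3 and MTIF2 had 1919 and 981 per kb. GFM1, which moves the ribosome along the mRNA, had 535 per kb, and GFM2, which recycles ribosomes, had 926 per kb. TACO1, a translational activator of the cytochrome oxidase subunit MT-CO1, had 851 per kb. By the longest transcript GFM1 had 973 per kb, above TACO1 with 867. TSFM, the exchange factor that recharges TUFM, had 90.9 per kb with Xenome, the lowest of the role.

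As a ratio of highest to lowest, the tRNA synthetases had the widest spread with Xenome (285-fold), from 10.9 to 3101 normalised counts per kb. Their median was 335 per kb. IARS2 (isoleucine) stood apart with 3101 per kb, above 97.6% of protein-coding genes. TARS2, YARS2, MARS2 and HARS2 followed with 805, 736, 732 and 690 per kb. EARS2, WARS2, LARS2, AARS2 and PARS2 lay between 472 and 265 per kb. FARS2, NARS2, SARS2, RARS2 and VARS2 were the lowest with Xenome over all exon bases, with 142, 123, 93.3, 27.6 and 10.9 per kb. The last 3 of these lay under the median of protein-coding genes, and NARS2 and RARS2 carry 16.4 and 17.6 kb of annotated exon, which lowers a value per kb. Divided by the longest transcript RARS2 had 74.5 and NARS2 374 per kb, the latter above AARS2 (340) and PARS2 (265). With Kallisto VARS2 and SARS2 had 519 and 359 per kb.

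The order of the 52 genes was nearly the same with XenofilteR, where 50 genes kept their rank, and 50 of 52 means lay within 5% of the Xenome mean. The exceptions were TUFM, whose mean was 9.66% higher with XenofilteR (10847 against 9891), and SSBP1, whose mean was 6.51% higher (10210 against 9586). Over 11657 protein-coding genes with a Xenome mean of at least 50, 95.1% lay within 5%.

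Kallisto, which assigns reads to transcripts rather than to genomic exons, lay within 5% of Xenome for 39 of the 52 genes, or 75%, beside 54.6% of the protein-coding genes. For 5 of the 52, or 9.62%, the Kallisto mean was over 1.2 times the Xenome mean, beside 17.9% of protein-coding genes. These were VARS2, TSFM, SARS2, TEFM and MTERF2. VARS2 had a mean of 70.3 normalised counts with Xenome, 70.3 with XenofilteR and 3354 with Kallisto, a ratio of 47.7. TSFM had 292 with Xenome and 2187 with Kallisto, a ratio of 7.49. SARS2 had 289 and 1111, a ratio of 3.84. TEFM had 792 and 998, a ratio of 1.26, and MTERF2 had 881 and 1085, a ratio of 1.23.

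With Kallisto, TSFM rose from rank 49 to rank 24 of the 52 genes, VARS2 from 52 to 27 and SARS2 from 48 to 39. The lowest gene was then RARS2 with 28.7 per kb. By the ratio of the means POLG2 was the gene lowest with Kallisto, with 768 beside 926 with Xenome, and it went from rank 44 to 48. AARS2 (38 to 43) and FASTKD5 (35 to 40) fell by more places. Whether TSFM and VARS2 were scarce or moderately expressed in C4-2B therefore depended on the pipeline.

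The position of these genes was looked up in GENCODE release 44, where all 52 genes overlap the interval the table gives and 43 have the same start and end. The annotation release the authors counted with is not given in the sources used here, and an overlapping gene of release 44 may be absent from it. Coordinates are those of the table. On chromosome 6, VARS2 (30914205 to 30926459) shares 63% of its exon bases, all of them with ENSG00000288473 on the same strand. On chromosome 12, TSFM (57782761 to 57808071) shares 71.2%, mostly with ENSG00000257921 on the same strand. On chromosome 19, SARS2 (38915266 to 38930896) shares 48.2% with ENSG00000269547 on the same strand. On chromosome 17, TEFM (30897336 to 30906238) shares 20.5% with a gene on the opposite strand. MTERF2, on chromosome 12 (106977277 to 106987160), shares 11.6% with TMEM263 on the opposite strand.

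Large overlap did not go with a large ratio in every case. MTERF4 on chromosome 2 shares 51% of its exon bases with SNED1, on the opposite strand, and its Kallisto and Xenome means were 4172 and 4160. Same-strand overlap also came with similar means. TACO1 shares 40.9% with ENSG00000288894 on the same strand, and its Kallisto and Xenome means were 1970 and 1998. MTPAP shares 33.3%, mostly with GOLGA2P6 on the same strand, and its means were 2731 and 2545. Over protein-coding genes the share with a Kallisto mean over 1.2 times the Xenome mean was 8.54% of 5483 genes with no shared exon base, 16.8% of 5146 genes with up to 25% shared, 68.2% of 707 genes with over 25 to 50% shared, and 84% of 312 genes with over 50% shared. In the same bins the 52 genes stood, with 0 of 21, 2 of 24, 1 of 4 and 2 of 3, numbers too small to set beside those shares. Reads in shared exons can be split or left out by the counting, so the levels of VARS2, TSFM and SARS2 are uncertain, and the part of the overlap in the difference was not tested.

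**Figure D2:**
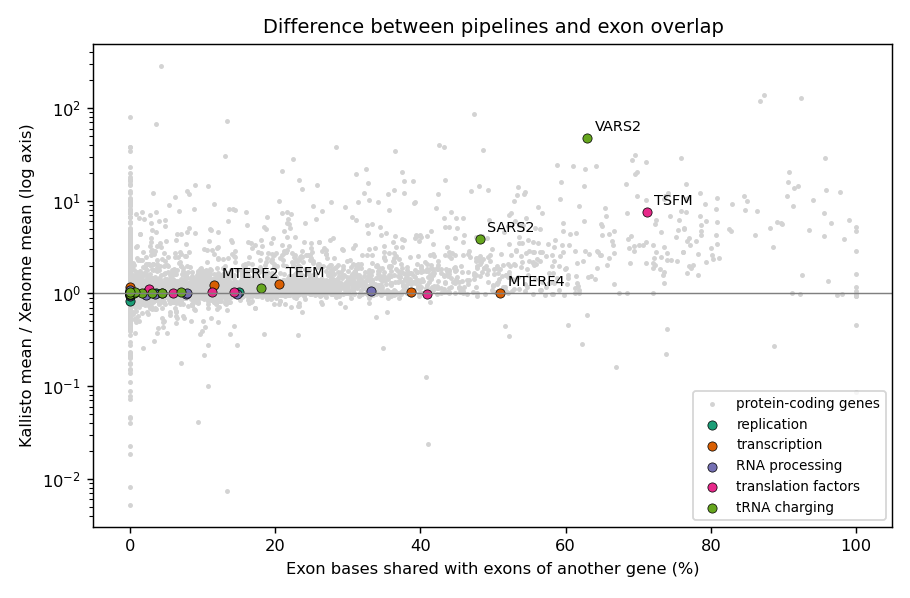
Kallisto mean over Xenome mean (log axis) against the percent of exon bases shared with exons of another gene, for protein-coding genes (grey) and the 52 genes (coloured by role). VARS2, TSFM and SARS2 combine a ratio of 47.7, 7.49 and 3.84 with 63%, 71.2% and 48.2% of exon bases shared, while MTERF4 has 51% shared and lies at the line of equal means.

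For some genes the pooled means could be taken apart. Each mean is a sum of whole reads of 6 libraries, each read weighted by 1 over 6 size factors, and was deposited to 15 digits. In the 6 libraries the size factors came out as 5.93, 5.31, 4.86, 0.427, 0.145 and 0.109. A single read added 0.0281 to the Xenome mean in the deepest library and 1.53 in the shallowest, so the pooled means rest as much on the few reads of the shallow libraries as on the many of the deep ones. The means carry no library name, and depth was not used to place a library in a culture, so the libraries are given here in order of depth, without a group, a mean over them or a test. Whole reads were found for 10 of the 52 genes, with Xenome means of 70.3 to 926. The other 42 were not solved, among them RARS2 (487) and MTERF2 (881) within that range and TFAM, POLG, POLRMT, LRPPRC and TUFM above it. The search looked for reads near equal normalised counts in all libraries, so genes with uneven libraries were less likely to be solved. Small spreads between libraries, as given below, were therefore favoured by the search.

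POLG2 had 5677, 4647, 4343, 451, 126 and 98 Xenome reads from the deepest to the shallowest library. These gave normalised counts of 958, 874, 893, 1057, 870 and 900. The highest and the lowest library differed 1.21-fold. The 95% Poisson intervals of library 4 (962 to 1159) and library 1 (933 to 983) by depth lay above those of library 2 (849 to 900) and library 3 (867 to 920), and the interval of the shallowest (731 to 1097) overlaps all others.

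TFB1M had 1738, 1564, 1396, 141, 52 and 34 reads, or normalised counts of 293, 294, 287, 331, 359 and 312. TEFM had 4808, 4046, 3546, 384, 115 and 82 reads, or 811, 761, 729, 900, 794 and 753. MTERF3, which represses initiation of mitochondrial transcription, had 5255, 4953, 4572, 441, 115 and 96 reads, or 887, 932, 940, 1034, 794 and 882. Among these transcription genes the highest library lay at most 1.3-fold above the lowest. In TEFM the intervals of libraries 1 and 4 lay above those of libraries 2 and 3. In MTERF3 the intervals of libraries 3 and 4 lay above that of library 1. In TFB1M all 6 intervals overlapped.

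FASTKD3 had 4657, 3916, 3664, 385, 104 and 80 reads, or normalised counts of 786, 737, 754, 903, 718 and 735. Its library 4 was the highest, with an interval of 815 to 997 above those of all 3 deeper libraries. FARS2, the phenylalanine synthetase, had 4192, 3768, 3245, 284, 92 and 80 reads, or 707, 709, 667, 666, 635 and 735. The FARS2 libraries lay closest together of the 10 genes, with 1.16-fold between highest and lowest.

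PARS2, the proline synthetase, had 3161, 3272, 2642, 323, 90 and 74 reads, or normalised counts of 533, 616, 543, 757, 622 and 680. As in FASTKD3, library 4 was the highest, with an interval of 677 to 844 above the intervals of all 3 deeper libraries. TSFM had 1530, 1378, 1290, 113, 46 and 42 reads, or 258, 259, 265, 265, 318 and 386. Its shallowest library was the highest, with an interval of 278 to 521 that overlaps those of libraries 3, 4 and 5 by depth and lies above those of libraries 1 and 2.

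SARS2 had 1766, 1573, 1444, 132, 40 and 28 reads, or normalised counts of 298, 296, 297, 309, 276 and 257, with all intervals overlapping. VARS2 had 466, 421, 416, 30, 5 and 8 reads, or 78.6, 79.2, 85.6, 70.3, 34.5 and 73.5. Its lowest library rests on 5 reads, with an interval of 11.2 to 80.6 that overlaps the intervals of the other 5. The intervals cover counting error only, since reads without molecular identifiers are not independent molecules.

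**Figure D3:**
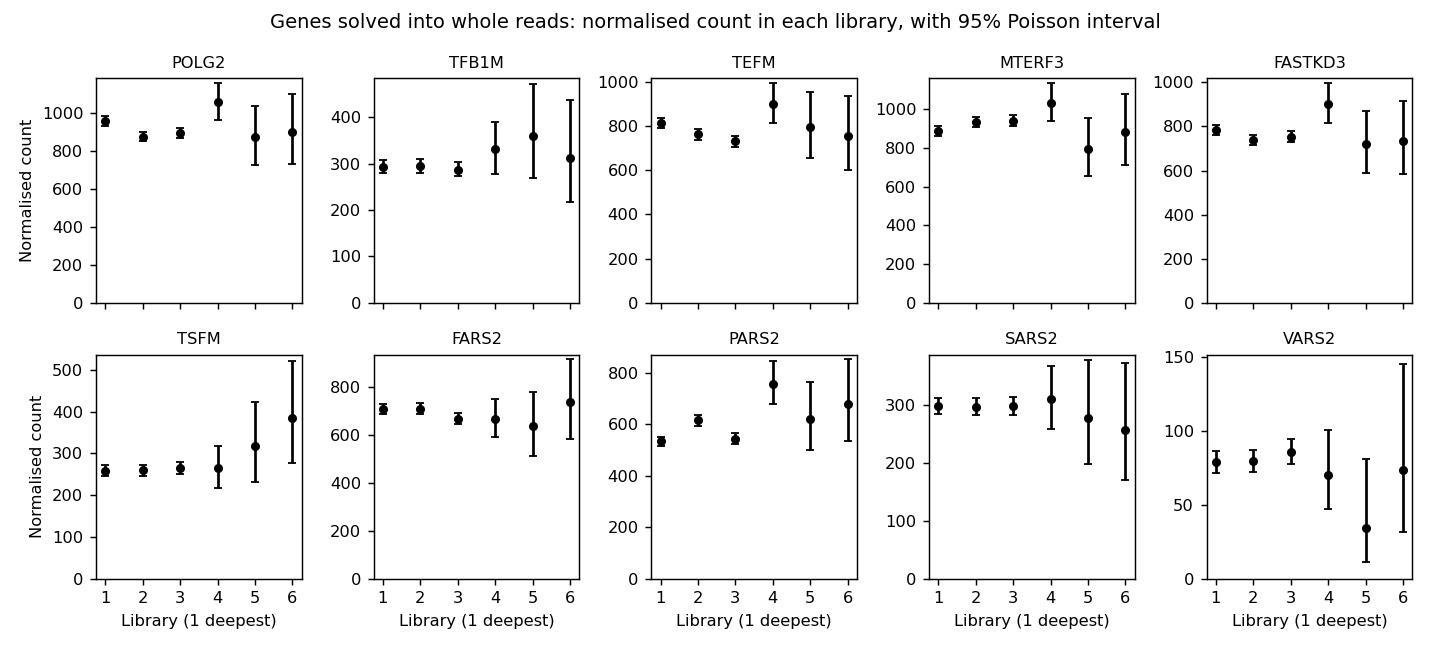
Normalised count (Xenome) of the 10 solved genes in each of the 6 libraries, ordered by depth with 1 the deepest, with exact 95% Poisson intervals as bars. Intervals widen from library 4 on, and library 4 lies above libraries 1 to 3 without overlap of the intervals in PARS2 (757) and FASTKD3 (903).

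The products of the machinery were far more abundant than its own mRNAs. The 13 mRNAs encoded in mitochondrial DNA had Xenome levels of 74005 to 282015 normalised counts per kb. With Xenome MT-CO3 and MT-ND4 were the highest and MT-ND6, the single mRNA of the other strand, was the lowest. The highest with Kallisto was MT-CO1 with 331064 per kb, above MT-CO3 with 308862 and MT-ND4 with 267541. Kallisto means were 1.45 times the Xenome mean for MT-CO1, 1.4 times for MT-ND2 and 0.716 times for MT-ATP8, whose frame overlaps that of MT-ATP6.

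Of 50 other genes of the pathway (nucleotide supply, RNA modification, release factors, transcriptional regulators and the remaining synthetases), 46 lay above the median of protein-coding genes, and their median was 393 normalised counts per kb beside 489 per kb for the 52. Markers of C4-2B cells were high: the 10 found had Xenome means of 4603 to 51038 normalised counts, with KLK3 (prostate-specific antigen) the highest. KLK3 was also the highest with XenofilteR. In Kallisto FOLH1 (47752) and STEAP2 (46924) lay above KLK3 (44909). With Xenome 8 of 15 osteoblast markers had a mean under 10, and the highest, COL1A1, had 3384 with Xenome, 4557 with XenofilteR and 2471 with Kallisto. In the same order COL3A1 had 43.9, 389 and 84.1, COL1A2 had 45.0, 264 and 222, and DCN had 0.966, 0.966 and 64.6. The part of mouse reads in the levels of the 52 genes was not tested.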

How the data were processed

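Libraries were made by the study with a stranded mRNA kit from total RNA. The authors separated human from mouse reads in 3 pipelines (Xenome with HISAT2 and featureCounts, XenofilteR with the same tools, and Kallisto on joined transcriptomes, GRCh38 and GRCm38 per the labels) and ran DESeq2; tool versions and the strand setting of the counting are not given in the sources used here. The deposited table holds for each pipeline the mean of the counts divided by size factors over 6 libraries, which is neither a raw count nor a CPM. It also holds 15 columns of the authors' own comparison (fold changes, standard errors, statistics and p-values), of which none is read by the analysis.

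A test between the cultures (limma on solved reads) and a reading of the deposited comparison in its place had been planned. Neither was run. Both were designed on those columns, the first to place solved libraries in a culture, and libraries were not placed by depth instead, although 3 are deep and 3 shallow, since a group was taken from labels only. While the method was being tried, the deposited Xenome fold changes and standard errors of solved genes were read once and compared with recomputed ones; that run was discarded and no value, choice or acceptance rests on it. The deposited comparison of a few genes, members among them, was also seen when coordinates were looked up after the results were complete, and was not used.

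Levels per kb used all exon bases of a gene in GENCODE release 44. Of 41734 rows, repeated gene IDs were dropped, and 43 of 52 genes have the same start and end in both sources. Ratios between pipelines were taken over protein-coding genes with a Xenome mean of at least 50. Whole reads were found by lattice reduction from the Xenome and XenofilteR means together. Of the possible solutions, the one nearest to equal normalised counts in all libraries was taken. A common shift between the deep and the shallow libraries was allowed for. The solution was kept where under 0.001 unrelated solutions were expected. This limit and the settings of the search were chosen over several tries on these data. The search was tested on simulated data. In the files, 4765 of 5963 genes with a Xenome mean of 15 to 150 were solved from 1 mean. Named were all members, by role and level, and from other lists the genes at the ends of the range. The members and lists were chosen with earlier results of these data known. Python 3.11.15, numpy 2.4.6 and pandas 2.3.3 were used.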

Additional observations from a re-analysis of the deposited data

How the results depend on the processing

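The median level of the 52 genes was 489 normalised counts per kb with Xenome, 490 with XenofilteR, 527 with Kallisto and, chosen after seeing the data, 714 when divided by the longest transcript. Single genes stayed within 1.5 times with XenofilteR in 52 of 52 cases, with Kallisto in 49 (not SARS2, TSFM and VARS2) and with the longest transcript in 37, so the levels per kb of the other 15 depend on the length used (ELAC2, GFM1, LRPPRC, MTERF4, MTPAP, NARS2, POLG, RARS2, SARS2, SLIRP, SSBP1, SUPV3L1, TBRG4, TOP1MT and VARS2). The number of genes with a Kallisto mean over 1.2 times the Xenome mean was 5, also with XenofilteR in place of Xenome, and it was 3 at 1.5 times and 8 at 1.1 times. Limits of 0.01 and 0.0001 unrelated solutions gave 11 and 7 solved genes in place of 10. These limits were chosen after seeing the data. At 0.0001 the genes POLG2, TEFM and FARS2 were no longer solved. Depth limits the pooled means through the 3 shallow libraries, where a solved gene had as few as 5 reads. The alternatives planned for the test between the cultures, leaving out a library among them, were not run, since that test was not run. No paired analysis was possible because the pooled means and the solved libraries carry no replicate number.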
